A study of Mus musculus with 4 samples.

Results

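The regions described here are 1723 stretches of the mouse genome, each 20 to 75 kb wide, that carried trimethylated lysine 36 of histone H3 (H3K36me3) in embryonic forebrain and had no region of trimethylated lysine 4 (H3K4me3) within 5 kb. They were chosen from the measured values, on chromosomes 1 to 19. An H3K36me3 region was a run of 5 kb bins that each held at least 20 ChIP tags and reached a ratio of ChIP to scaled input of at least 2, with 1 tag added to both sides of the ratio, which 9.76% of bins did. An H3K4me3 region was a run of 1 kb bins with at least 20 tags and a ratio of at least 4, which 0.606% of bins reached. Runs were joined over gaps of at most 1 bin. The genome held 10192 H3K36me3 regions by this rule, of which 4232 were 20 to 75 kb wide, and the 1723 without H3K4me3 made up 40.7% of those (95% interval 39.2 to 42.2). They covered 60.25 Mb, or 2.54% of the covered autosomes, and held 14.4% of the autosomal H3K36me3 ChIP tags.

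H3K36me3 is placed by SETD2, which travels with elongating RNA polymerase II, so the mark lies over the bodies of transcribed genes. H3K4me3 is placed at the start sites of active and poised genes by COMPASS-type methyltransferases. A domain of H3K36me3 is therefore usually pictured with H3K4me3 at the end where transcription starts, and the domains described here are those where the rule found none.

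The tissue was forebrain of CD1 embryos at embryonic day 11.5, dissected and pooled, with 36 pieces for each ChIP library. CD1 is an outbred strain, and the labels of the 4 libraries name no mutation and no treatment of the animals. The 4 groups were the H3K4me3 ChIP, its input, the H3K36me3 ChIP and its input, with 1 library in each. The H3K4me3 ChIP and its input had been amplified through 8 cycles of whole-genome amplification, whereas the H3K36me3 ChIP was not amplified and the label of its input says the same. The inputs are called the amplified and the unamplified input below. Mark and amplification cannot be told apart in this design. With no replicate there was no test, and every interval below covers counting error only. All positions are in the build mm8. No annotation of that build was used, so no gene is named, no sequence is shown, and the tissue was not checked against marker genes. The libraries held 7606197 tags (H3K4me3 ChIP), 2513019 (amplified input), 10466543 (H3K36me3 ChIP) and 23110768 (unamplified input).

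The domains lay on all 19 autosomes, at 0.728 per covered Mb (exact Poisson interval 0.694 to 0.763). Chromosome 11 was densest, at 0.894 (0.732 to 1.08), and chromosome 14 sparsest, at 0.493 (0.375 to 0.638). The share of 20 to 75 kb domains that lacked H3K4me3 was highest on chromosome 1, at 49.7% (43.7 to 55.6), and lowest on chromosome 7, at 32.4% (26.9 to 38.2). Chromosome 1 held 2.44 H3K4me3 regions per Mb and chromosome 7 held 4.38. Chromosome 14 held 2.5 per Mb, and 37.4% (29.8 to 45.5) of its domains lacked H3K4me3. Chromosome 18, also at 2.5 per Mb, had 47.2% (38.9 to 55.7), and the 2 intervals overlap. A link between the share and that density was not tested.

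H3K36me3 in these domains stood well above the surrounding genome but below the level of domains of the same width with 1 H3K4me3 region. Over all 1723 domains together the ChIP stood at 4.03 times its scaled input (4.02 to 4.04), against 0.361 outside all H3K36me3 regions. The single domain held a median of 671 ChIP tags against 395 input tags, and its ratio had a median of 3.66 with quartiles of 2.91 and 4.73. In the 1879 domains of 20 to 75 kb with exactly 1 H3K4me3 region the median was 5.07, with quartiles of 3.94 and 6.54. The same H3K36me3 threshold had chosen both sets, so these heights are given as a description. Scaling the input on background bins in place of library totals raised the named domains below from a range of 1.65 to 12.8 to one of 6.90 to 53.4, and 37.7% of the 1723 domains then overlapped a domain that met the rule.

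The gap between the sets narrowed with width. Among domains of 20 to 30 kb the medians were 3.44 without H3K4me3 and 5.20 with it. From 35 to 50 kb they were 3.82 and 5.0, and from 55 to 75 kb they were 4.15 and 4.97. The height without H3K4me3 thus rose with width while the height with it fell slightly. The quartile ranges of the sets overlapped in every width class.

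**Figure D1:**
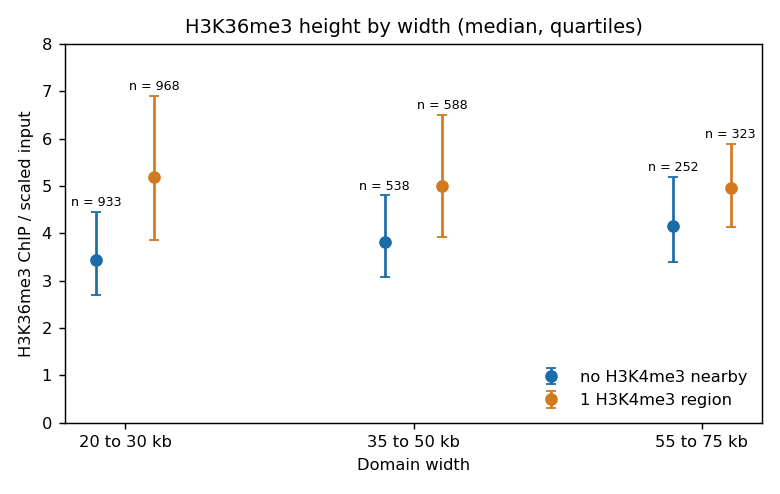
H3K36me3 height in 3 width classes. The vertical axis is the ratio of H3K36me3 ChIP tags to scaled input tags of a domain, points are medians over domains, bars run from the lower to the upper quartile, and n counts domains; medians without H3K4me3 rise from 3.44 to 4.15 and those with 1 H3K4me3 region fall from 5.20 to 4.97.

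The lower a domain stood in H3K36me3, the more often it lacked H3K4me3. Of 651 domains with a ratio under 3, 75.9% (72.4 to 79.1) had none nearby. The share was 55.5% (52.3 to 58.7) at ratios from 3 to 4, 38.5% (35.3 to 41.8) from 4 to 5 and 24.3% (21.9 to 26.9) from 5 to 7. At 7 or more it was 11.3% (8.77 to 14.3), which left 61 domains without H3K4me3 among the 539 highest. The share also moved with the depth of the amplified input, though less: it was 47.3% (44.2 to 50.3) in the 1058 domains with the fewest input tags per kb and 35.7% (32.9 to 38.7) in the 1063 with the most. By the unamplified input it was 44.5% (41.5 to 47.6) in the 1054 domains with the fewest tags per kb and 36.0% (33.1 to 39.0) in the 1058 with the most. The part of either depth in the result was not tested.

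**Figure D2:**
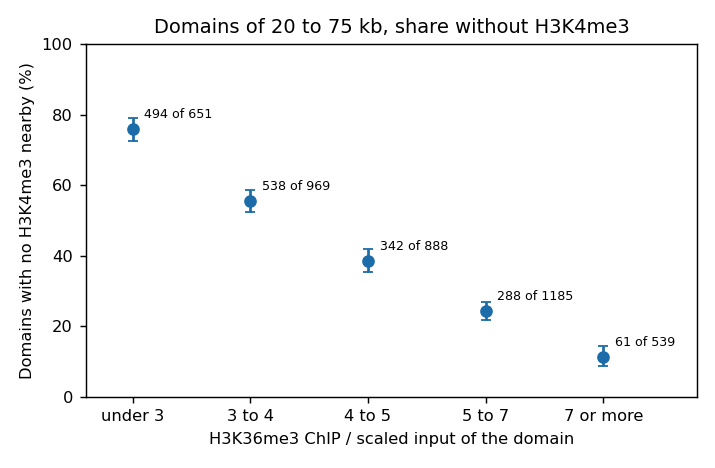
Share of 20 to 75 kb domains with no H3K4me3 region overlapping or within 5 kb, by the H3K36me3 ratio of the domain. Points are percentages, bars are exact 95% binomial intervals, and the counts beside them give domains without H3K4me3 among all of that height; the share falls from 75.9% under a ratio of 3 to 11.3% at 7 or more.

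A few domains without H3K4me3 were among the strongest H3K36me3 domains of the genome. Of the 1723, chr15:81995001-82035000 had the most tags over input. It held 5049 H3K36me3 ChIP tags against 1034 of the unamplified input, a ratio of 10.8 (10.1 to 11.5). Its H3K4me3 ChIP held 97 tags against 71 of the amplified input over the whole 40 kb, and no single kb of it or the 5 kb beside it held more than 10. The highest of the 1723 ratios belonged to chr8:111820001-111850000, with 3530 ChIP tags against 610, or 12.8 (11.7 to 13.9). Its H3K4me3 ChIP held 67 tags against 43 of the amplified input, and the kb touching its end of higher coordinate held the most, 10 against 0. There the nearest H3K4me3 region lay 214 kb away, while the nearest other H3K36me3 region lay 10 kb away.

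Others of this kind were as continuous. The domain chr8:46505001-46555000 held 4315 ChIP tags against 834, a ratio of 11.4 (10.6 to 12.3), and all 10 of its bins passed the threshold. A single kb 21 kb inside it held 15 H3K4me3 tags against 1 of the amplified input, a ratio of 3.97. The domain chr1:39905001-39975000 held 4383 against 1199 over 70 kb, a ratio of 8.07 (7.57 to 8.61), with the nearest H3K4me3 region 57 kb away. Their H3K4me3 ChIP held 163 and 183 tags, against 85 and 83 of the amplified input. The domain chr4:155005001-155030000 reached 9.78 (8.99 to 10.6), from 3008 against 679, and held 90 H3K4me3 tags against 51. A ratio of 12.0 (9.83 to 14.8) at chr10:81425001-81455000 rested on less, 616 tags against 113, and 5 of its 30 kb held no unamplified input tag. The H3K4me3 ChIP of that domain held 58 tags against 6 of the amplified input, a ratio of 3.19 (1.38 to 9.06).

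The domain chr15:88510001-88560000 held 4471 H3K36me3 tags against 1047, a ratio of 9.43 (8.81 to 10.1). The kb just beyond its end of higher coordinate (88560001 to 88561000) held 25 H3K4me3 tags against 2 of the amplified input, a ratio of 3.69 with the added tag, just under the threshold of 4. The domain chr8:13340001-13385000 held 4275 H3K36me3 tags against 1037, a ratio of 9.10 (8.50 to 9.75). The kb before its start (13339001 to 13340000) held 17 H3K4me3 tags against 1, a ratio of 4.47, and missed the minimum of 20 tags.

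Among the 38 domains at the upper width limit of 75 kb, the 3 with the most tags over input were chr17:46390001-46465000 (3742 tags against 1293, ratio 6.39, 6.0 to 6.81), chr14:59645001-59720000 (3652 against 1517, ratio 5.31, 5.0 to 5.65) and chr19:21855001-21930000 (3415 against 1005, ratio 7.50, 6.99 to 8.06). The first and last had an H3K4me3 region 7 and 8 kb beyond an edge, and the nearest to the other lay 54 kb away.

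Within the domains H3K36me3 was nearly level. In 10 equal parts counted from the end that faced the nearest H3K4me3 region, the ratio was 3.49 in the first, 4.08 in the second, 4.26 in the sixth and ninth, and 3.50 in the last. Both outer parts were lower. Domain edges are borders of 5 kb bins, and the part of this in the lower values was not tested. Of all 5 kb bins inside the domains 90.4% passed the threshold, and 864 domains, or 50.1% (47.8 to 52.5), had no bin below it. Domains with 1 H3K4me3 region were less often interrupted: 66.2% (64.0 to 68.3) had no bin below the threshold.

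The edges fell off over a few kb and to a level above the open genome. In the first 5 kb inside the end facing the nearest H3K4me3 region the profile climbed from 2.71 in the outermost kb to 4.22 in the fifth. The other end climbed from 2.44 to 4.50. Outside, the lowest kb of the profile had a ratio of 0.797 (0.777 to 0.817) on the facing side and 0.733 (0.714 to 0.752) on the other. More than 5 kb from any region of either mark it was 0.308. The rule keeps the bins beside a domain under the threshold, but not down to that level.

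**Figure D3:**
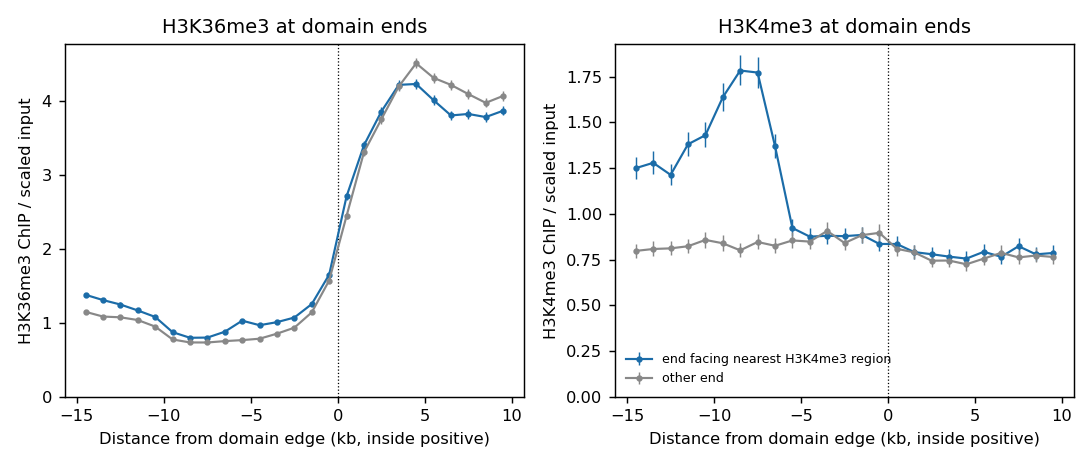
Ratio of ChIP tags to scaled input tags by distance from the domain edge, pooled over 1722 domains (the other lay within 20 kb of a chromosome end), for H3K36me3 (left) and H3K4me3 (right). Negative distances lie outside, blue is the end facing the nearest H3K4me3 region, grey the other end, and bars are exact 95% intervals; H3K36me3 climbs inside both edges, and H3K4me3 rises beyond 5 kb outside the facing end, to 1.78, where the rule begins to allow it.

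H3K4me3 inside the domains was no higher than in the rest of the genome. The rule set this contrast, so its values are a description. The H3K4me3 ChIP held 2.97 tags per kb in the domains against 3.09 per covered kb of the autosomes, or 0.960 times that mean. The amplified input stood at 1.23 times its own mean there. The ratio of ChIP to scaled input was 0.776 (0.770 to 0.783), against 0.919 (0.918 to 0.921) more than 5 kb from any region of either mark. Domains with 1 H3K4me3 region had 0.774 (0.768 to 0.781) once that region and the kb on each side of it were left out, so their bodies and the domains described here differed by less than these intervals.

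Some domains nevertheless had single kb with many H3K4me3 tags, inside them or in the 5 kb beside them, that did not meet the rule. Over the genome, called H3K4me3 regions included, 0.606% of 1 kb bins passed it. Whatever their ratio, 0.982% held at least 15 tags and 0.715% at least 20. In the domains and the 5 kb beside them 0.319% (0.280 to 0.362) of bins held at least 15, and 0.0953% (0.0746 to 0.120) at least 20. Of the 72 bins with at least 20, 55 lay outside the edges, 12 in the outer 5 kb inside and 5 in the interior. The highest kb of a domain, taken over the domain and the 5 kb beside it, had a median of 10 tags, with quartiles of 8 and 12. It reached 15 tags or more in 10.7% of domains (9.26 to 12.2) and 20 or more in 64, or 3.71% (2.87 to 4.72). Those 64 failed on the ratio alone, which ranged from 0.814 to 3.97 with a median of 2.88. It was 3 or more in 28 of them.

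These higher kb lay mostly at the ends of the domains. The rule did not use their position, but it set the edges from the H3K36me3 ChIP and the unamplified input. An end was taken as the 5 kb inside and the 5 kb outside an edge. Over all 1723 domains the excess was small: the highest H3K4me3 kb lay at an end in 55.7% (53.3 to 58.1), beside 48.7% for even placement over the same bins, 53.3% (50.9 to 55.7) for the highest kb of the unamplified input and 49.9% (47.5 to 52.3) for that of the amplified input. The share was larger where that kb held more tags. Where the highest kb held under 10 tags it lay at an end in 52.6% of 837 domains (49.1 to 56.0), close to the 51.3% that even placement over the same bins gives. With 10 to 14 tags the share was 51.9% (48.1 to 55.6), beside 45.5% for even placement. With 15 to 19 tags it was 80.8% of 120 domains (72.6 to 87.4), beside 49.2%, and with 20 or more it was 92.2% of 64 (82.7 to 97.4), beside 47.7%.

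The same held away from called H3K4me3 regions. Of the 1410 domains more than 10 kb from any of them, 150 had a kb of 15 tags or more inside or within 5 kb. In 84.0% (77.1 to 89.5) of these it lay at an end. Counted by bins of these 1410 domains, 0.985% (0.826 to 1.17) of the kb in the 5 kb outside the edges held at least 15 tags, 0.239% (0.165 to 0.336) of the outer 5 kb inside did, and 0.0837% (0.0560 to 0.120) of the interior. Over all 1723 domains the shares were 1.01% (0.863 to 1.17), 0.237% (0.170 to 0.323) and 0.0785% (0.0540 to 0.110). More than 5 kb from any region of either mark the share was 0.158%. The interior was thus below the open genome and the outside of the edges above it.

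The unamplified input moved with this result. Where the highest H3K4me3 kb had 15 tags or more, that kb held a median of 22 unamplified input tags, against 11 in the other domains. The highest kb of the unamplified input itself lay at an end in 78.1% of the 64 domains with 20 H3K4me3 tags or more, and in 52.3% of those with under 10. The highest kb of the amplified input did so in 59.3% and 50.6%. Judged against the unamplified input, 18 bins in 18 of the 1723 domains passed the H3K4me3 rule. They made up 0.0238% (0.0141 to 0.0376) of the bins in the domains and the 5 kb beside them. Over the genome the share was 0.411%, which includes the called H3K4me3 regions that the rule keeps out here. The rule used the unamplified input to set the edges, and the part of the input in the position of these bins was not tested.

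**Figure D4:**
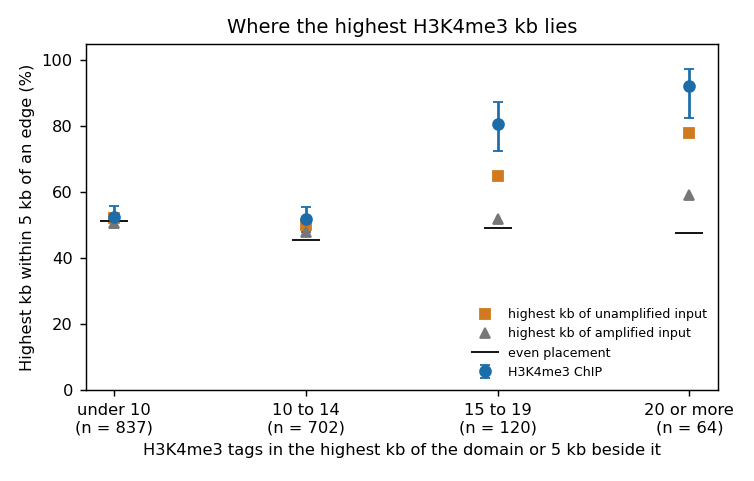
Share of domains whose highest 1 kb bin lies within 5 kb of an edge, by the number of H3K4me3 tags in the highest H3K4me3 bin of the domain or the 5 kb beside it. Circles are the H3K4me3 ChIP with exact 95% binomial intervals, squares and triangles the highest bins of the unamplified and amplified inputs, and dashes the share that even placement gives; the circles stand at 52.6%, 51.9%, 80.8% and 92.2% while the dashes stay between 45.5% and 51.3%.

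The domain with the highest such kb was chr6:113205001-113245000. The kb just outside its end of lower coordinate (113204001 to 113205000) held 98 H3K4me3 tags against 8 of the amplified and 19 of the unamplified input, a ratio of 3.93. Its body held 112 H3K4me3 tags over 40 kb, and its H3K36me3 ratio was 3.87 (3.53 to 4.23). At chr5:77665001-77725000 the kb outside the end of lower coordinate held 48 tags against 4, a ratio of 3.74, beside an H3K36me3 ratio of 5.97 (5.51 to 6.48). At chr11:29350001-29415000 the last kb inside the end of higher coordinate held 47 against 4, a ratio of 3.66. All 3 kb lay within 1 kb of an edge.

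Lower ratios were found at chr7:30130001-30150000, where the second kb inside held 58 tags against 7 (ratio 2.66), and at chr1:93330001-93360000, where the kb from 93325001 held 46 against 5 (ratio 2.91). The bins nearest to the threshold were those at chr7:133480001-133515000, with 27 tags against 2 (ratio 3.97), and at chr8:126125001-126200000, with 39 against 3 (also 3.97). The first lay outside an edge and the second 14 kb inside.

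In the 151 domains whose single highest kb held 15 tags or more at an end, that end was the one of lower coordinate 80 times and of higher coordinate 71 times. H3K36me3 in the first 5 kb inside was 4.46 (4.36 to 4.56) at that end and 3.81 (3.73 to 3.90) at the opposite one. From 5 to 10 kb inside the ends differed little, 4.57 (4.47 to 4.68) and 4.49 (4.40 to 4.59). From 5 to 15 kb outside the ratio was 0.686 (0.668 to 0.705) beyond the H3K4me3 end and 0.764 (0.744 to 0.784) beyond the other. H3K36me3 at the end with H3K4me3 tags was thus higher in the first 5 kb inside and lower from 5 to 15 kb outside. These pooled values leave out the 5 kb just outside the edge, and their intervals do not cover the spread between domains. Over the whole domain, those with a kb of 15 tags or more inside or within 5 kb had a median H3K36me3 ratio of 4.17. It was 3.59 where no kb reached 15.

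Most domains had other marked regions close by. The nearest H3K4me3 region lay at a median of 33 kb from the edge, with quartiles of 14 and 78.5 kb. It lay within 10 kb for 313 domains, within 25 kb for 712, or 41.3% (39.0 to 43.7), and within 100 kb for 1396. Regions under 20 kb wide without H3K4me3 nearby, 3864 in all, had one within 25 kb less often, at 25.7%. In the 120 regions over 75 kb wide without H3K4me3 nearby the share was 49.2% (39.9 to 58.4). Another H3K36me3 region lay within 25 kb of 1189 domains, or 69.0% (66.8 to 71.2). This share was 62.9% (61.3 to 64.4) in the regions under 20 kb and 67.5% (58.3 to 75.8) in those over 75 kb. In the 1879 domains with a single H3K4me3 region it was 55.4% (53.1 to 57.7). Of the 1723 domains, 598 had another H3K36me3 region at 10 kb, the shortest distance the joining of bins leaves. With the input scaled on background bins the share with H3K4me3 within 25 kb fell to 22.7%.

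**Figure D5:**
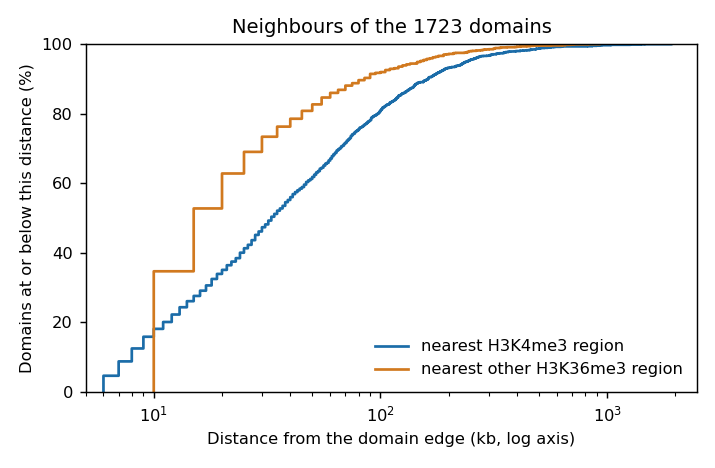
Cumulative share of the 1723 domains by distance from the edge to the nearest H3K4me3 region (blue) and to the nearest other H3K36me3 region (orange), on a log axis in kb. H3K4me3 starts at 6 kb and H3K36me3 at 10 kb, the shortest distances the rule allows; 41.3% of domains have H3K4me3 and 69.0% have H3K36me3 within 25 kb.

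H3K36me3 did not fall to the level of the open genome between a domain and its neighbours. For the 313 domains with H3K4me3 at 6 to 10 kb, the stretch up to that H3K4me3 region had a ratio of 1.17 (1.14 to 1.19) and an equal stretch on the opposite side 0.884 (0.867 to 0.902). No other H3K36me3 region lay in the former. For the 399 domains with H3K4me3 at 11 to 25 kb the values were 1.22 (1.21 to 1.24) and 0.922 (0.912 to 0.933), with no other H3K36me3 region between in 307. The stretch toward H3K4me3 was the higher of the pair in both classes. Between a domain and an H3K36me3 region 10 kb away the ratio was 1.28 (1.27 to 1.30), and across gaps of 55 to 100 kb it was 0.580 (0.574 to 0.586).

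Linked over gaps of up to 25 kb, 640 domains, or 37.1% (34.9 to 39.5), belonged to a chain of H3K36me3 regions in which another region had H3K4me3 within 5 kb. Those chains spanned a median of 115 kb. A further 549 were linked only to regions without H3K4me3, and 534, or 31.0% (28.8 to 33.2), stood alone. The median H3K36me3 ratio was 3.95 in chains with H3K4me3, 3.25 in chains without it and 3.77 in domains that stood alone. Links over gaps of up to 50 kb raised the share in chains with H3K4me3 to 54.6% (52.2 to 56.9). Of the 3864 regions under 20 kb without H3K4me3 nearby, 27.6% (26.2 to 29.1) were in such chains at 25 kb. At 50 kb it was 44.6% (43.1 to 46.2) of them. At 25 kb, 37.1% (35.6 to 38.7) of these narrower regions stood alone.

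Isolated domains stood at nearly the same height as the rest, but a larger share of them had a kb of at least 15 H3K4me3 tags. Of the 1723, 292 had neither an H3K4me3 region nor another H3K36me3 region within 25 kb. Their median ratio was 3.58, against 3.68 in the rest, and their median width 32.5 kb, against 30 kb in all 1723. The highest H3K4me3 kb had a median of 9 tags in them, against 10 in all 1723. A kb with at least 15 H3K4me3 tags, inside or within 5 kb, was found at 52 of the isolated domains, or 17.8% (13.6 to 22.7). In the rest the share was 9.22% (7.77 to 10.8). These shares count domains, and the share by bins was not computed. In 45 of the 52 it lay at an end.

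At 118 domains no H3K4me3 region lay within 200 kb, and at 23 none within 500 kb. The farthest was chr17:93090001-93125000, 1928 kb from the nearest, with 625 H3K36me3 tags against 225 (ratio 6.13, 5.26 to 7.17) and 86 H3K4me3 tags against 25. Next came chr8:20410001-20435000 at 1459 kb, with 129 H3K36me3 tags against 93 (ratio 3.06, 2.33 to 4.04), and chr12:20070001-20125000 at 1408 kb, with 436 against 183 (ratio 5.26, 4.42 to 6.29). The H3K4me3 region nearest to chr12:22930001-22955000 lay at 1265 kb, and that domain held 255 H3K36me3 tags against 107 (ratio 5.26, 4.18 to 6.66).

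Input was thin at several of these. The chromosome 8 domain held 34 H3K4me3 tags against 4 of the amplified input, a ratio of 2.81 (1.0 to 10.9), and a kb within 5 kb outside it held 14 against 0, with 52 tags of the unamplified input. The wider chromosome 12 domain held 42 against 5, a ratio of 2.78 (1.10 to 8.99), and the other 17 against 1, a ratio of 5.62 (0.880 to 235). All 3 ratios were above the 0.776 of all domains together, with wide intervals. Of the 55 kb of the wider chromosome 12 domain, 15 held no unamplified input tag, beside 2.20% of the kb of all 1723 domains. The same was true of 4 of 25 kb in the other chromosome 12 domain and 5 of 25 in the chromosome 8 domain. In the farthest domain, on chromosome 17, it was true of 4 of 35 kb. The part of this low depth in these domains having no H3K4me3 region was not tested. The fifth, chr2:134280001-134305000 at 1045 kb, had no such kb, and held 245 H3K36me3 tags against 139 (ratio 3.89, 3.15 to 4.83) and 67 H3K4me3 tags against 24.

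The limits of the rule cut through gradual distributions. Regions of 15 kb without H3K4me3, just too narrow, numbered 614 with a median ratio of 3.07, and the 388 domains of 20 kb had 3.27. The 38 domains of 75 kb had 4.28, and 18 regions of 80 kb had 4.64. The 81 domains whose nearest H3K4me3 region lay at 6 kb had a median ratio of 4.15, and 107 domains kept out by one at 5 kb, with none overlapping, had 4.40.

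Single domains at the limits show what the rule lets in. The lowest ratio, 1.65 (1.40 to 1.94), belonged to chr6:99400001-99425000, with 270 H3K36me3 tags against 361 and 3 of 5 bins past the threshold. Next was chr19:3365001-3385000, with 355 against 440 (ratio 1.78, 1.54 to 2.05). The 20 kb domains with the fewest tags over input were chr3:114085001-114105000 (74 tags against 66) and chr16:77290001-77310000 (85 against 89). Where H3K4me3 lay at 6 kb, the domains with the most tags over input were chr17:46775001-46825000 (2873 against 964, ratio 6.58, 6.11 to 7.08) and chr15:101010001-101045000 (2107 against 813, ratio 5.72, 5.27 to 6.21).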

How the data were processed

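The authors deposited 1 list per library with a line for each placed tag (chromosome, position, strand sign), in mm8 per the submitters' processing notes. The lists are named by the authors as unique hits. What aligned the reads, and how long they were, is not stated in the sources used here. Positions were read as counted from 1. One tag was kept per chromosome, position and sign, which removed 27.5% of the nuclear tags of the amplified input and none of the other lists. With 1 tag per position and sign, the height of any place with many true copies is capped. Tags were shifted by 75 bp along their sign and counted in bins. Inputs were scaled by library totals, by 3.027 for H3K4me3 and 0.453 for H3K36me3. Ratios of domains are sums of ChIP tags over scaled input tags without an added tag, with exact Clopper-Pearson intervals at 95%. Ratios of single bins include the added tag. Distances run between edges, and a tied highest bin was shared equally. Covered genome means 10 kb bins with a tag of the unamplified input. Python 3.11.15, numpy 2.4.6, pandas 2.3.3 and scipy 1.17.1 were used, and the region caller was tested on simulated tags.

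The members, lists and named domains were chosen with earlier results of these data known. Named were the 5 domains with the most H3K36me3 tags over input, the 5 with the highest lower bound of the ratio, the 5 with the most H3K4me3 tags in a kb, the 5 farthest from H3K4me3, 3 of the widest and 2 just inside each limit, with chromosome 18 left out. The classes by height, input depth and H3K4me3 tags, the chains and the isolated domains were chosen after the data were seen.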

Additional observations from a re-analysis of the deposited data

Results flagged for a closer look

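Chromosome X was outside the rule and entered no value above. By the same thresholds it held 127 H3K36me3 regions of 20 to 75 kb, of which 53, or 41.7% (33.0 to 50.8), had no H3K4me3 region within 5 kb. Together they stood at 3.81 times the scaled input (3.71 to 3.91), with a median ratio of 3.51 and a median width of 30 kb. The H3K36me3 threshold had chosen them, so this height is a description. They numbered 0.346 per covered Mb (0.259 to 0.453).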

How the results depend on the processing

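The 5 main values were recomputed under 11 alternatives. The number of domains ranged from 1346 to 2233 and stayed within 1.5 times 1723 in all of them, but the domains were not always the same places: 53.6% of the 1723 overlapped a domain found with an H3K36me3 ratio of 3, 70.2% with a shifted bin grid and 37.7% with the input scaled on background bins. Of the 29 named domains, 13 overlapped a domain found on the shifted grid and 15 one found with background scaling. The number was 21 at an H3K4me3 ratio of 3 and at most 26, without the shift of tags. The main values were 40.7% of 20 to 75 kb domains lacking H3K4me3, 55.7% with the highest H3K4me3 kb at an end, 41.3% with H3K4me3 within 25 kb and a pooled H3K4me3 ratio of 0.776. With a minimum of 10 H3K4me3 tags, 35.2% of the 20 to 75 kb domains lacked H3K4me3, 52.9% of members had the highest H3K4me3 kb at an end and 50.1% had H3K4me3 within 25 kb. Against the unamplified input these values were 50.3%, 61.1% and 30.9%. With background scaling 43.3% lacked H3K4me3, 22.7% had it within 25 kb, and the pooled H3K4me3 ratio was 0.735. That ratio was 0.770 without merging over gaps and 0.784 on the shifted grid. Counting H3K4me3 within 10 kb as nearby gave 33.3% lacking it and 28.3% with it within 25 kb. The share within 25 kb was 35.1% at an H3K36me3 ratio of 1.5 and 49.0% at 3. Without merging, 59.7% had the highest kb at an end. The other 39 recomputed values stayed within the interval, or for the number of domains within 1.5 times, of the main value. The cause of these shifts was not tested. No paired analysis was possible because each group held 1 library. The 2513019 tags of the amplified input, 1.03 per covered kb, limit every H3K4me3 ratio of a single kb: in 223 domains the highest H3K4me3 kb held no tag of it.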
